A study of Arabidopsis thaliana with 12 samples.

Results

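Transcript levels were described for 3 genes of chlorophyll and tetrapyrrole synthesis in the *Arabidopsis thaliana* mutant psad1 and in wild type (WT). The genes were HEMA3 (AT2G31250), CHLM (AT4G25080) and AT1G74470. They were found through the array's probe annotation, as probes for which exactly 1 gene is listed, and each of the 3 genes had 1 such probe. These are 3 of the 692 probes with 1 gene and of the 3439 probes on the array. Total RNA was measured in 6 samples of psad1 and 6 samples of WT, both of ecotype Columbia 0. The psad1 plants are without PSI-D1, a form of the photosystem I subunit PSI-D that binds ferredoxin on the stromal side. The comparison asks which transcripts differ in level when this protein is missing. The labels used here state no allele beyond the name psad1, no tissue, no plant age and no growth condition. They also do not say that samples are from different plants, and a p-value here reflects only how much the samples differed, possibly for technical reasons.

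Tetrapyrroles are made in the plastid from glutamate. Glutamyl-tRNA reductase, the product of the HEMA genes, makes the first committed step towards 5-aminolevulinic acid and is the point at which heme and light control the pathway. Common steps lead on to uroporphyrinogen III, where the branch to siroheme leaves, and to protoporphyrin IX, which takes up iron for heme or magnesium for chlorophyll. CHLM, the magnesium protoporphyrin IX methyltransferase, works early in the magnesium branch. AT1G74470, the geranylgeranyl reductase also known as CHLP, works at its end and supplies the phytyl tail of chlorophyll and of tocopherols. Free intermediates of the pathway are phototoxic, and the finished chlorophyll is bound by the photosystems and their antennae.

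Mean intensity per sample was 1.05 to 1.07 and median intensity 0.554 to 0.623, in the authors' units on a linear scale. In psad1 as in WT the samples fell into 3 sets of 2, numbers 1 with 2, 3 with 4, and 5 with 6. Over all tested probes, set partners deviated together from the mean of their genotype (r from 0.469 to 0.649), and samples of different sets did not (r from −0.609 to −0.111). Deviations from the mean of the same 6 samples add up to 0, so part of the negative r between sets comes from this centring. The 12 samples were therefore tested as 12 and again as 3 set averages per genotype, and means ± SD are over set averages. No probe listed PSAD1 or PSAD2 alone, so the genotype labels could not be checked. Of 9 leaf markers, 1 could be read, the antenna gene LHB1B2, at 16.0 to 22.5 in psad1 and 17.0 to 21.3 in WT. None of 5 root markers and none of 4 seed markers had a probe of its own.

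Of the 3 genes, only HEMA3 passed the test on 12 samples, and it did not pass on set averages. HEMA3 was higher in psad1, CHLM was higher by a smaller amount that did not pass, and AT1G74470 was lower by an amount that did not pass. Across the array, 505 of 3202 tested probes (15.8%) passed on 12 samples, 247 of them (7.71%) higher in psad1, and 28 (0.874%) passed on set averages. With 1 call among 3 genes, nothing about the pathway can be read from the count. The median log2 change, psad1 minus WT, was 0.21 over the 3 genes and −0.02 over all tested probes. The median over the 3 genes is the value of CHLM, which did not pass, so it says nothing about the pathway either. In total RNA, a change in the share of cells that express a gene and a change in RNA per cell cannot be told apart.

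**Figure D1:**
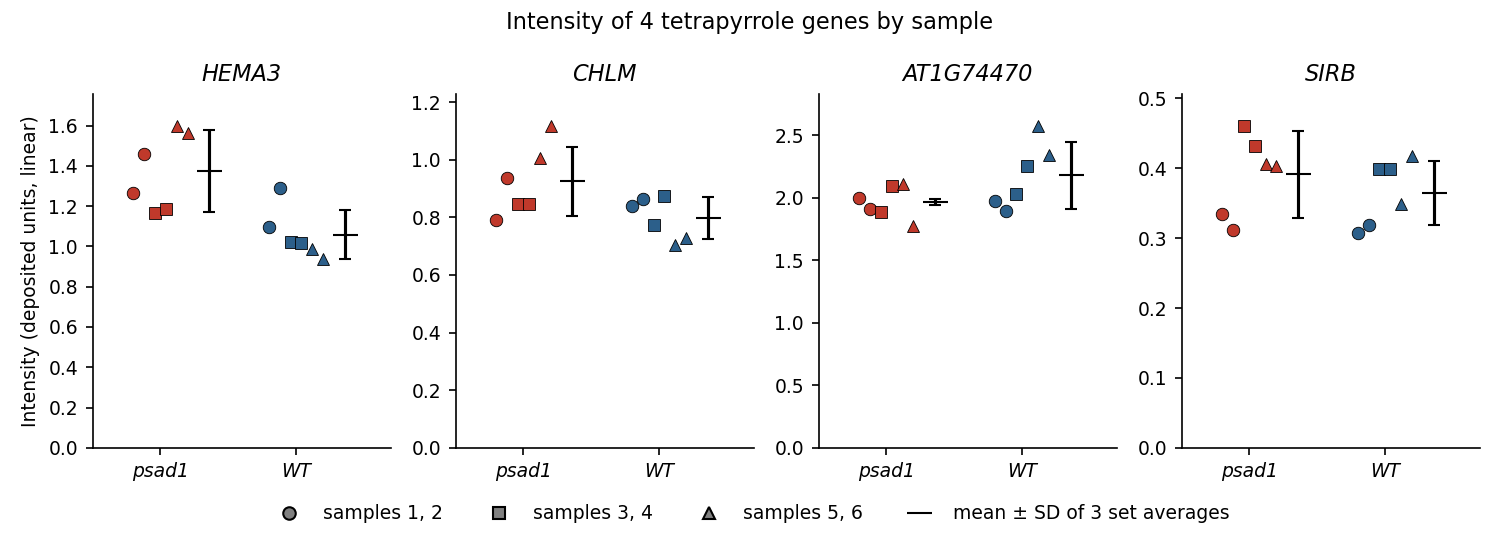
Intensity in the authors' linear units (vertical axis, from 0) for HEMA3, CHLM, AT1G74470 and SIRB in 6 psad1 samples (red, left) and 6 WT samples (blue, right), with a marker shape for each set of 2 samples and a bar for the mean ± SD of 3 set averages. The genotypes overlap for all 4 genes. HEMA3 and CHLM were highest in psad1 samples 5 and 6 and lowest in WT samples 5 and 6.

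HEMA3 encodes an isoform of glutamyl-tRNA reductase. HEMA1, the light-regulated isoform of green tissue, and HEMA2 encode the same enzyme, and whether the HEMA3 probe also detects their transcripts was not tested. The intensity of HEMA3 in psad1 samples was 1.17 at the lowest, 1.36 at the median and 1.60 at the highest, against 0.937, 1.02 and 1.29 in WT samples. All 6 psad1 samples lay above 5 of the 6 WT samples, and 3 psad1 samples lay above every WT sample. WT sample 2, at 1.29, was the WT sample that reached into the psad1 range.

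By set, HEMA3 averaged 1.36, 1.17 and 1.58 in psad1 sets 1, 2 and 3, against 1.19, 1.02 and 0.962 in WT sets 1, 2 and 3. The mean was 1.37 ± 0.204 in psad1 and 1.06 ± 0.121 in WT (SD, n = 3 sets each). The psad1 set of samples 3 and 4 was below the WT set of samples 1 and 2, so the set averages overlapped, as they did for CHLM and AT1G74470. Over the whole array the set averages of the genotypes did not overlap for 20.8% of tested probes, and the 6 samples of each genotype did not overlap for 9.03%. Partners within a set differed by 0.00496 to 0.232 on the log2 scale. The log2 change was 0.37, a 1.29-fold higher intensity in psad1. On 12 samples it had a standard error (SE) of 0.10, a 95% confidence interval of 0.16 to 0.58 and a limma adjusted p of 0.0188. On set averages the SE was 0.14, the interval 0.07 to 0.67 and the limma adjusted p 0.249. An exact permutation test (2-sided) gave p = 0.0108 on 12 samples and p = 0.2 on set averages, where 3 sets against 3 cannot go below 0.1. HEMA3 also missed the threshold with sets as a random block (limma adjusted p 0.16, a fit in which 2.62% of all probes passed) and with array weights (log2 change 0.30, limma adjusted p 0.0522). Without psad1 samples 5 and 6, the log2 change on set averages was 0.26.

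CHLM transfers a methyl group to magnesium protoporphyrin IX, the step after magnesium is inserted. Its intensity in psad1 samples was 0.791 at the lowest, 0.893 at the median and 1.12 at the highest, against 0.703, 0.808 and 0.875 in WT samples. The genotypes overlapped widely: 3 psad1 samples lay above every WT sample, and 3 WT samples lay below every psad1 sample.

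By set, CHLM averaged 0.865, 0.847 and 1.06 in psad1 sets 1, 2 and 3, against 0.853, 0.825 and 0.716 in WT sets 1, 2 and 3. The mean was 0.925 ± 0.119 in psad1 and 0.798 ± 0.0727 in WT (SD, n = 3 sets each). Sets 1 and 2 of both genotypes lay close together, and the third sets, made of samples 5 and 6, lay apart, high in psad1 and low in WT. The log2 change of 0.21 had an SE of 0.09 on 12 samples (95% interval 0.02 to 0.40, limma adjusted p 0.122) and of 0.12 on set averages (−0.07 to 0.49, adjusted p 0.458). The exact permutation test gave p = 0.0584 on 12 samples and p = 0.2 on set averages. On set averages the log2 change was 0.10 without psad1 set 3.

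AT1G74470 reduces the geranylgeranyl chain to phytyl for the last step of chlorophyll synthesis. Its intensity in psad1 samples was 1.78 at the lowest, 1.95 at the median and 2.11 at the highest, against 1.90, 2.14 and 2.58 in WT samples. Here 3 WT samples lay above every psad1 sample, and 2 psad1 samples lay below every WT sample. The psad1 set averages were almost level, at 1.95, 1.99 and 1.94, against 1.93, 2.14 and 2.46 in WT sets 1, 2 and 3. The mean was 1.96 ± 0.0241 in psad1 and 2.18 ± 0.265 in WT (SD, n = 3 sets each). Over the 6 single samples the SD was 0.129 in psad1 and 0.259 in WT. Partners differed most in psad1 set 3, by 0.251 on the log2 scale, so its average lies between an intensity of 2.11 and one of 1.78.

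The log2 change of AT1G74470 was −0.15, with an SE of 0.08 on 12 samples (95% interval −0.32 to 0.03, limma adjusted p 0.218) and of 0.11 on set averages (−0.40 to 0.11, adjusted p 0.569). The exact permutation test gave p = 0.0974 on 12 samples and p = 0.4 on set averages. On set averages it was −0.05 without WT set 3 and −0.23 without WT set 1, and with array weights on 12 samples it was −0.09. All 3 genes were above the intensity floor in 12 of 12 samples, at no less than 5.54 times the floor of the same sample for HEMA3, 4.21 times for CHLM and 10.3 times for AT1G74470.

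**Figure D2:**
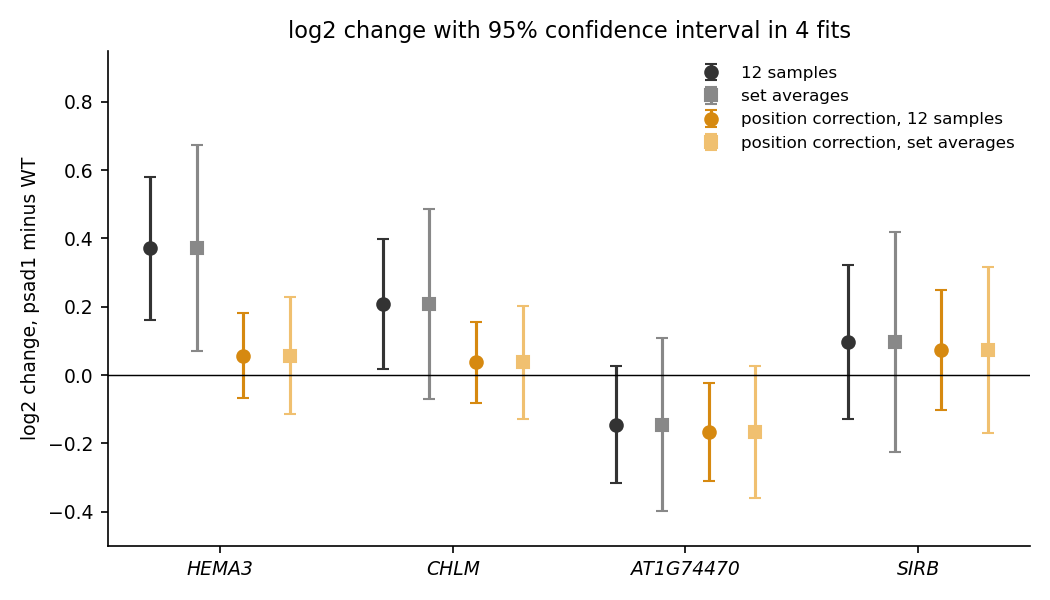
Log2 change, psad1 minus WT (vertical axis), of HEMA3, CHLM, AT1G74470 and SIRB in 4 limma fits, with 95% confidence intervals as bars: 12 samples, set averages, and both again after the position correction. HEMA3 was at 0.37 before and 0.06 after the correction, CHLM at 0.21 and 0.04, while AT1G74470 was at −0.15 and −0.17.

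The changes of HEMA3 and CHLM were shared by the probes that stand beside theirs in the array's numbering, which was taken to follow the layout of the array. The HEMA3 probe has number 1995. Of the 24 tested probes nearest to it, 12 on either side, 22 had a log2 change above 0, and their median was 0.31, against 0.37 for HEMA3. In 8 of the 24 the log2 change was larger than that of HEMA3. On 12 samples, 5 of the 24 rose and 1 fell. Of all 3202 tested probes, 1495 had a log2 change above 0. On 12 samples 505 of the 3202 (15.8%) passed, 247 of them (7.71%) higher in psad1.

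The neighbours were also compared with HEMA3 sample by sample. In psad1 samples 5 and 6, HEMA3 deviated from its mean over 12 samples by 0.42 and 0.39 on the log2 scale, and the median of its neighbours by 0.46 and 0.48. In WT samples 5 and 6, HEMA3 deviated by −0.28 and −0.35, and its neighbours by −0.34 and −0.36. HEMA3 stood apart from its neighbours in psad1 sample 2, where it deviated by 0.28 and they by 0.03, in WT sample 1 (−0.12 and 0.00) and in WT sample 4 (−0.24 and −0.10). These 3 gaps were the largest, and all 3 run in the direction of the genotype difference. Smaller gaps, HEMA3 minus neighbours, ran with it in psad1 samples 1 and 3 (0.06 and 0.04) and WT sample 3 (−0.08). They ran against it in psad1 samples 4, 5 and 6 (−0.04, −0.05 and −0.09) and WT samples 2, 5 and 6 (0.07, 0.07 and 0.00). After subtraction of a running median over 25 probes (the position correction), the log2 change of HEMA3 was 0.06, with a 95% interval of −0.07 to 0.18 on 12 samples (limma adjusted p 0.589) and of −0.12 to 0.23 on set averages (0.792). With that correction 13.7% of all probes passed on 12 samples and 1.75% on set averages.

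**Figure D3:**
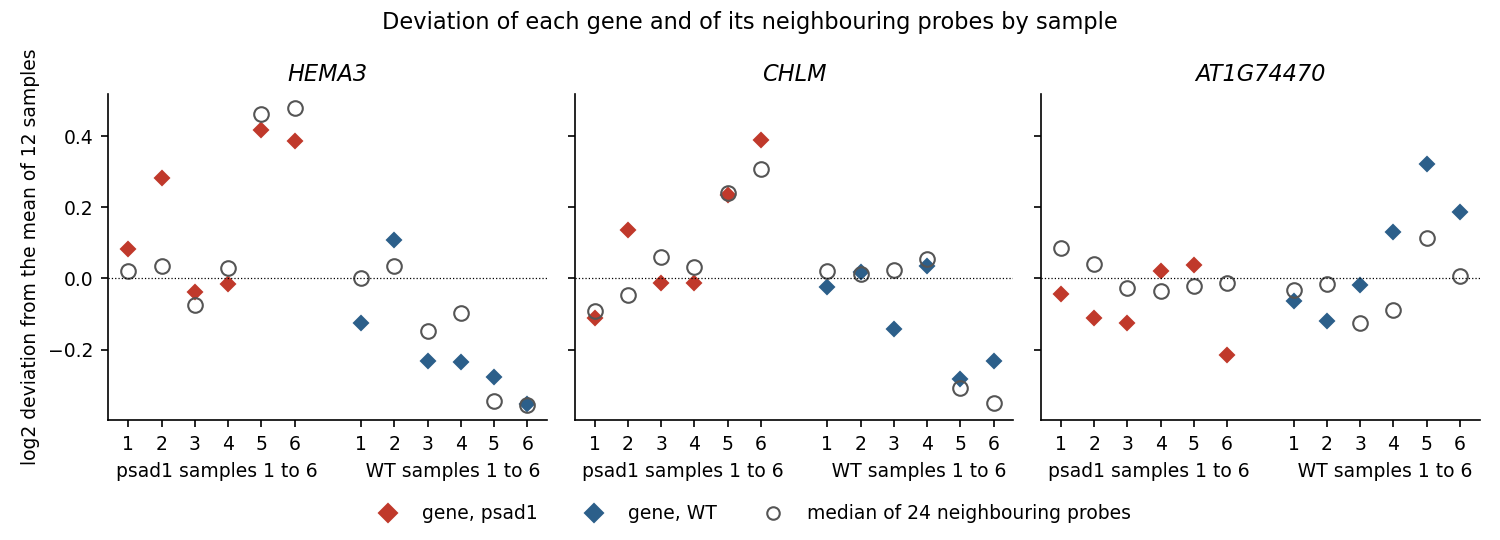
Log2 deviation from the mean of 12 samples (vertical axis) in psad1 samples 1 to 6 and WT samples 1 to 6 (horizontal axis), for the gene (filled diamonds) and for the median of the 24 nearest tested probes in the numbering (open circles). For HEMA3 and CHLM both kinds of point are high in psad1 samples 5 and 6 and low in WT samples 5 and 6, whereas AT1G74470 is above its neighbours in psad1 samples 4 and 5 and WT samples 3 to 6, and below them in the other samples.

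Around CHLM, probe 2091, the 24 neighbours had a median log2 change of 0.16, against 0.21 for CHLM, and 22 of them were above 0. Of these neighbours 2 rose and 1 fell on 12 samples. The CHLM probe stands 58 tested probes from that of HEMA3. In psad1 samples 5 and 6, CHLM deviated by 0.24 and 0.39 and its neighbours by 0.24 and 0.31. In WT samples 5 and 6 it deviated by −0.28 and −0.23, and its neighbours by −0.31 and −0.35. CHLM stood apart from its neighbours in psad1 sample 2, where it deviated by 0.14 and they by −0.05. It also did so in WT sample 3 (−0.14 and 0.02) and in WT sample 6 (−0.23 and −0.35). The gap in WT sample 6 runs against the direction of the genotype difference, and those in psad1 sample 2 and WT sample 3 run with it. After the position correction the log2 change of CHLM was 0.04, with a 95% interval of −0.08 to 0.16 on 12 samples (limma adjusted p 0.73) and of −0.13 to 0.20 on set averages (0.869).

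AT1G74470, probe 2360, did not follow its neighbours in this way. Their median log2 change was −0.0024, with 12 of 24 below 0, and 20 of the 24 had a log2 change above that of AT1G74470. On 12 samples 5 of these neighbours rose and 1 fell. In psad1 samples 1, 2, 3 and 6 the gene differed from the median of its neighbours by −0.13, −0.15, −0.10 and −0.20 on the log2 scale, and in psad1 samples 4 and 5 by 0.06 and 0.06. In WT samples 3, 4, 5 and 6 the difference was 0.10, 0.22, 0.21 and 0.18, and in WT samples 1 and 2 it was −0.03 and −0.11. Samples of both genotypes thus lay on either side of their neighbours. After the position correction the log2 change was −0.17. Its 95% interval was −0.31 to −0.02 on 12 samples (limma adjusted p 0.121) and −0.36 to 0.03 on set averages (0.386), and it passed in neither fit.

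**Figure D4:**
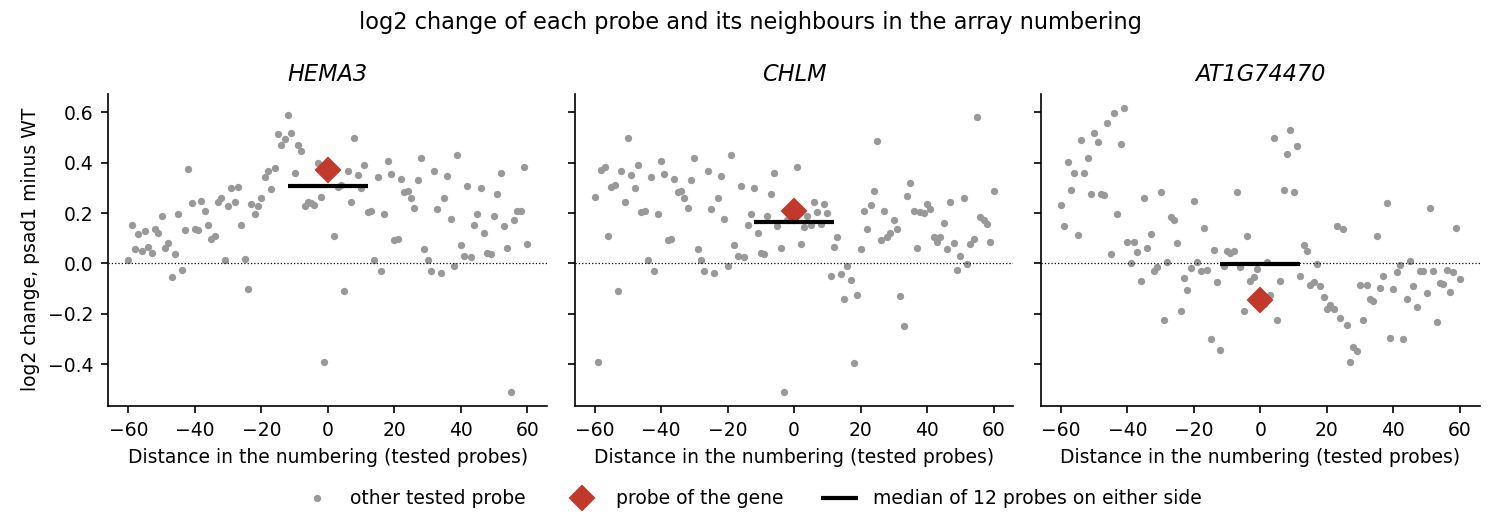
Log2 change, psad1 minus WT (vertical axis), of the probe of each gene (red diamond) and of up to 60 tested probes on either side of it, by distance in the array's numbering (horizontal axis), with a black line for the median of the 12 probes on either side. HEMA3 at 0.37 and CHLM at 0.21 lie close to lines at 0.31 and 0.16, and AT1G74470 at −0.15 lies below a line at −0.0024. The probes of HEMA3 and CHLM are 58 tested probes apart, so their panels share probes.

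Whether the 3 genes moved unequally was tested on the log2 difference between the genes within each sample, in which the scale of a sample cancels. The difference HEMA3 minus AT1G74470 averaged −0.53 in psad1 (range −0.82 to −0.18) and −1.04 in WT (−1.38 to −0.56). The change in this difference, psad1 minus WT, was 0.52 (SE 0.16), with an exact permutation p of 0.013 on 12 samples and 0.039 after adjustment over the 3 pairs of genes. For CHLM minus AT1G74470 the change was 0.35 (SE 0.15), and for HEMA3 minus CHLM it was 0.16 (SE 0.07), both with an exact permutation p of 0.039 before and after adjustment. So, on 12 samples taken as independent, the probes of HEMA3, CHLM and AT1G74470 differed from each other in log2 change. With 1 probe for each, this says nothing about whole steps of the pathway. On set averages none of the 3 passed, with exact p values of 0.2, 0.3 and 0.2 and an adjusted p of 0.3 for each, in a design that cannot go below 0.1.

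After the position correction, the change was 0.22 for HEMA3 minus AT1G74470 and 0.20 for CHLM minus AT1G74470, each with an adjusted exact permutation p of 0.0779 on 12 samples. For HEMA3 minus CHLM it was 0.02, with an adjusted p of 0.693. The 3 differences passed in 3, 4 and 5 of the 12 fits in which 1 sample was left out, in the order HEMA3 minus CHLM, CHLM minus AT1G74470 and HEMA3 minus AT1G74470.

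Of the 55 genes in 4 lists for the whole tetrapyrrole pathway, 4 had a probe of their own: the 3 genes above and SIRB (AT1G50170), the ferrochelatase of siroheme synthesis. The list of the first and common steps had 1 of 18 genes measured, HEMA3, which rose on 12 samples. The magnesium branch had 2 of 17 measured, and neither passed. The heme, bilin and siroheme branches had 1 of 10 measured, which did not pass. The chlorophyll cycle and breakdown had 0 of 10 measured, and so had tocopherol and phytol synthesis with 0 of 7. The median log2 change of the 4 measured genes was 0.15, and 0 of them passed on set averages with limma (1 at an unadjusted p under 0.05, HEMA3).

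SIRB inserts iron into sirohydrochlorin, and siroheme serves nitrite and sulfite reduction. Its intensity in psad1 samples was 0.312 at the lowest, 0.404 at the median and 0.461 at the highest, against 0.307, 0.374 and 0.417 in WT samples. The genotypes overlapped almost fully. The log2 change was 0.10 (SE 0.11, limma adjusted p 0.552 on 12 samples, and SE 0.15, 0.774 on set averages) and 0.07 after the position correction. SIRB was the dimmest of the 4 relative to the floor, down to 1.75 times it. A further 4 probes listed 2 genes each, all from these lists, and are not named by gene. Their log2 changes ran from −0.10 to 0.19, and none passed on 12 samples (lowest limma adjusted p 0.165) or on set averages (0.518), and 0 had an unadjusted p under 0.05 in either fit.

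The probes whose 12 log2 values were most like those of each gene were looked up among all tested probes with 1 gene, as a description in which samples share sets and probes share positions. For HEMA3 these were AT4G34310 (Pearson r 0.91, n = 12), Z-ISO (0.91), which encodes an isomerase of carotenoid synthesis, and AT3G54210 (0.90). For CHLM they were AT3G54210 (0.96), AT4G34310 (0.95) and AT5G66530 (0.94). The lists overlap in 2 genes, and AT4G34310 stands 12 probe numbers from CHLM and 84 from HEMA3. For AT1G74470 the nearest were AT3G50270 (0.82), AT5G19940 (0.81) and ATSIK (0.80), at least 410 probe numbers away.

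After the position correction the same r values were 0.47, 0.52 and 0.16 for HEMA3, 0.49, 0.62 and 0.46 with AT3G54210, AT4G34310 and AT5G66530 for CHLM, and 0.13, −0.13 and 0.67 for AT1G74470. The probes were picked for a high r before the correction, so a lower r after it is likely from the choice alone, and nothing is read from it. HEMA3 and CHLM were themselves alike, with r of 0.86 over 12 samples and 0.59 after the correction. Their probes stand 58 tested probes apart in the numbering. Over the 12 samples, r with the median of the 24 neighbouring probes was 0.91 for HEMA3, 0.88 for CHLM and 0.26 for AT1G74470. Whether HEMA3 and CHLM are alike beyond what their positions share was not tested. The r of AT1G74470 was −0.65 with HEMA3 and −0.67 with CHLM over 12 samples, and −0.36 and −0.20 after the correction. Within genotypes (n = 6 each) it was −0.18 with HEMA3 and −0.43 with CHLM in psad1, against −0.77 and −0.73 in WT.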

How the data were processed

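The authors' deposited values were linear intensities of 3439 probes in 12 samples, and the unit was taken from the values. How the array was scanned, background-corrected and scaled is not given in the sources used. Column means differed by at most 2.03%, so the table was used as deposited. Intensities under each sample's 5th percentile of positive values (0.152 to 0.184) were set to that floor, log2 was taken, and 237 probes at or below it in all samples were left out. For the remaining 3202, limma 3.58.1 (R 4.3.3) was used (lmFit, eBayes, 2-sided, Benjamini-Hochberg over all of them, threshold 0.05). Fits on 12 samples, on set averages and with sets as a random block were also run on simulated data. Their outcome is not given here. Exact permutation tests were run in Python 3.11.15, with figures by matplotlib 3.10.9. Gene names came from the platform annotation (692 probes with 1 gene, 870 with several, 1877 not listed) and the TAIR10.1 gene table, which held 690 of the 692. Set averages joined samples 1 and 2, 3 and 4, and 5 and 6. The fits, the permutation tests and the shares of probes without overlap used the mean of their log2 values. The set averages of intensity, with their means ± SD, used the mean of the linear intensities. The position correction subtracted a running median over 25 tested probes from the deviations of every sample from each probe's mean. Named genes were the 3 genes, other genes of the pathway lists with a probe of their own, and the 3 most alike probes with 1 gene for each of the 3. The 3 genes, lists and alternatives were chosen with earlier results of these data known. Of 8 sets of 6 sample values (4 genes, 2 genotypes), none held a sample that stood apart (largest gap over range 0.543 for the 3 genes, limit 0.625). This check looks at single samples and can hardly mark 2 set partners that stand apart together. Same-numbered samples of both genotypes correlated with r from 0.00805 to 0.483, 4 of 6 over 0.1. The labels do not say that equal numbers pair the samples, and these values do not settle it. The main fit did not pair them. With the number as a replicate block on 12 samples, 761 probes passed, against 505 without it. The number of samples limits the precision. Sequences were not used.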

Additional observations from a re-analysis of the deposited data

How the results depend on the processing

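Of 32 alternatives, HEMA3 passed in 20 and CHLM, AT1G74470 and SIRB in 0, and the 3 genes HEMA3, CHLM and AT1G74470 kept their direction in all 32. Every fit in which HEMA3 passed took set partners as independent samples. It passed in no fit on set averages and not with sets as a random block, where the correlation within sets was 0.73. The 20 are mostly variants of the same fit on single samples. HEMA3, at a log2 change of 0.37 on 12 samples, missed the threshold at the same 0.37 on set averages, with sets as a random block and on set averages with a replicate block for the set (limma adjusted p 0.222), at 0.30 with array weights, at 0.057 after the position correction on 12 samples and on set averages, and at 0.26 to 0.48 when 1 set was left out of the set averages. It passed with the replicate block on 12 samples (0.024), which changed no call of the 3 genes, and whichever sample was left out (0.32 to 0.43). For CHLM the value was 0.15 to 0.25 with a sample left out, and for AT1G74470 −0.18 to −0.10. The count of probes that passed, 505, was 28 on set averages, 84 with sets as a random block, 761 with the replicate block, 27 on set averages with a replicate block for the set, 56 on set averages after the position correction, 9 to 53 when 1 set was left out of the set averages and 387 to 553 when 1 sample was left out of the 12. The changes in the differences HEMA3 minus CHLM, HEMA3 minus AT1G74470 and CHLM minus AT1G74470 lost the call on set averages (0.16, 0.52 and 0.35), after the position correction (0.020, 0.22 and 0.20, on 12 samples and on set averages), and when 1 set was left out of the set averages, at 0.11 to 0.21 for HEMA3 minus CHLM, 0.36 to 0.69 for HEMA3 minus AT1G74470 and 0.19 to 0.49 for CHLM minus AT1G74470. With a sample left out, where 3, 5 and 4 of 12 fits passed, these were 0.13 to 0.20, 0.45 to 0.61 and 0.27 to 0.42. The replicate block, the array weights, the filters on dim probes and the variance settings were not run for these differences. SIRB turned sign on set averages without psad1 set 2 (−0.0048) and without WT set 1 (−0.0091), and reached 0.23 without psad1 set 1. The causes were not tested. SIRB lay closest to the floor.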
